A study of Mus musculus with 2 samples.

Results

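The cells described here are lung macrophages with high transcript counts of Folr2, Cd163, Lyve1, Cd209f and Cd209g, genes that mark CD206+ interstitial and perivascular macrophages. A cell was taken as a member when it held at least 8 unique molecular identifiers (UMIs) of these 5 genes together and at least 3 UMIs of the complement genes C1qa, C1qb and C1qc together. Of 4570 cells kept, 527 met this gate, which is 11.5% (10.6 to 12.5, exact binomial interval), and they are called gated macrophages below. The values that chose them are therefore descriptions and support nothing by themselves.

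The lung holds macrophages in the airspaces and, apart from these, interstitial macrophages in the tissue around vessels, nerves and airways. Blood monocytes can refill the interstitial niche when it is emptied. Interstitial macrophages rich in Mrc1 (the mannose receptor CD206), Lyve1 and Folr2 are usually set apart from those rich in MHC class II molecules and poor in CD206. TGF-beta signals through a type II receptor, encoded by Tgfbr2, which recruits the type I receptor and leads to phosphorylation of Smad2 and Smad3.

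Irradiated CD45.1+CD45.2+ IM-DTR hosts, in which diphtheria toxin depletes interstitial macrophages, received CD45.1-CD45.2+ bone marrow and, 10 days before sacrifice, 50 ng of the toxin. Donor marrow was Tgfbr2 fl/fl in the control pool and LyzM-Cre Tgfbr2 fl/fl in the Tgfbr2-KO pool, so both carried the floxed allele and only the second the Cre of the myeloid lysozyme M gene. Lung cells of 5 chimeric mice per genotype were pooled, sorted as donor-type Ly6G-SiglecF-CD11b+SSCloCD64+ cells, labelled with a hashtag per genotype (B0301 for control, B0303 for Tgfbr2-KO) and run together in 1 droplet library. With 1 pool per genotype there was no replicate. No test was made and no p-value computed. All 95% intervals cover counting error only, not differences between mice or sorts. Those of levels and ratios also leave out the spread of UMIs between cells.

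The gated macrophages numbered 187 of 1896 control cells, or 9.86% (8.56 to 11.3), and 340 of 2674 Tgfbr2-KO cells, or 12.7% (11.5 to 14.0). Their depth was close in both pools, with a median of 10304 UMIs per control cell and 9817 per Tgfbr2-KO cell. Over all kept cells the medians were 7785 and 10278 UMIs. After each cell was thinned to 3000 UMIs and a gate of 3 UMIs (and 1 C1q UMI) was used, the gate held 175 of 1816 control cells and 326 of 2591 Tgfbr2-KO cells. In cells of 5000 to 15000 UMIs the shares were 9.86% in control and 15.2% in Tgfbr2-KO. With a gate of 12 UMIs they were 6.33% and 9.91%.

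The labels were checked on the lysozyme genes and on Tgfbr2 in the gated macrophages. Lyz2, the gene that carries the Cre, stood at 11430 UMIs per 1000000 gene UMIs (UPM, the unit of every level below) in the control pool and at 5445 in the Tgfbr2-KO pool. Its neighbour and near copy Lyz1 stood at 158 and 960 UPM, and reads shared by the 2 copies can make this split uncertain. Tgfbr2 itself stood at 336 and 329 UPM, but tags from the 3′ end do not read a deletion elsewhere in the gene. Whether the receptor was lost in these cells was therefore not measured.

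The gate genes encode endocytic receptors. Folr2 (chr7:101839988-101857190, GRCm38) encodes folate receptor beta and was the most widely held, with a UMI in 98.9% of control and 98.8% of Tgfbr2-KO gated macrophages. Cd163 (chr6:124304636-124330529) encodes the scavenger receptor for haemoglobin bound to haptoglobin and was found in 49.2% and 58.5%. Lyve1 (chr7:110850607-110862953), a hyaluronan receptor shared with lymphatic endothelium, was found in 56.1% and 42.4%. Cd209f (chr8:4102784-4105838) and Cd209g (chr8:4134246-4137707), neighbouring C-type lectin genes of the family of DC-SIGN, were found in 59.4% and 68.8%, and in 48.7% and 64.4%. In kept cells with no C1q UMI, which should lack these genes, Folr2 was found in 2.70% and 2.09% at median depths of 3601 and 10736 UMIs. The working name of the population stresses Lyve1, yet many of its cells held no Lyve1 UMI at a median of 10044 UMIs per cell.

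Cd209f and Cd209g were the pair of gate genes with the highest correlation across the gated macrophages. The sequences before 1 RefSeq transcription start of each are therefore shown here. The capitals mark the bases that both share in 1 unbroken run.
Cd209f, chr8:4105765-4106014, minus strand: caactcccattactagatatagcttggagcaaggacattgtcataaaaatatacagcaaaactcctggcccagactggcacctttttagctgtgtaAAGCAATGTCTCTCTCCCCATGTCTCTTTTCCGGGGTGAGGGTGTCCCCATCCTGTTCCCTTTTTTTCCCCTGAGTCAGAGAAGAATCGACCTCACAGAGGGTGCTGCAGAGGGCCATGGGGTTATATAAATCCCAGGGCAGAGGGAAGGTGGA
Cd209g, chr8:4134486-4134735, plus strand: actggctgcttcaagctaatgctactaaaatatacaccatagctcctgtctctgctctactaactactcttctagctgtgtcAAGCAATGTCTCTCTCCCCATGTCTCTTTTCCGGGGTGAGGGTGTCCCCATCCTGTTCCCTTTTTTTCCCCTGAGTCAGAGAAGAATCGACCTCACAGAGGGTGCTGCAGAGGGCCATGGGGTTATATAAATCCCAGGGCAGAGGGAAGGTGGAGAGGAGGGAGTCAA
The 250 bases shown are from RefSeq (GRCm38.p6), read towards the start. By the gene spans given above, those of Cd209g lie inside the gene and those of Cd209f overlap it in part. All distances therefore hold only for this 1 start of each gene. The shared run is 180 bases long and goes on past the start. It begins 154 bases before the start of Cd209f and 168 before that of Cd209g. Among the other 20 pairs of the 7 Cd209 promoters in the same table, the longest shared run was 7 to 17 bases. The letters TGAGTCA, the binding motif of AP-1 factors, occur once in each, 83 bases before the start of Cd209f and 97 before that of Cd209g. TGAGTCA was found on either strand in 5.20% of all 32851 promoter entries of 300 bases. TATAAA, the core of a TATA box, lies 29 and 43 bases before the start, and 13.6% of all entries hold it on either strand. These matches describe the letters only. The promoter table holds 1 entry for Cd163 and 2 for Folr2, and Lyve1 is named only.

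Cd209f stood at 580 UPM (548 to 613) in control and at 1079 UPM (1046 to 1112) in Tgfbr2-KO gated macrophages. Cd209g stood at 232 UPM (212 to 254) and 463 UPM (441 to 485). These intervals take each UMI as independent, although a Tgfbr2-KO cell held up to 126 Cd209f UMIs at a median of 6. Both lectin genes were higher in the Tgfbr2-KO pool. Cd163 was also higher there, at 292 UPM (275 to 310) against 172 (155 to 190). Folr2 stood at 919 UPM (888 to 950) against 722 (687 to 759), which is below a ratio of 1.5. Lyve1 alone went the other way, with 147 UPM (135 to 160) in the Tgfbr2-KO pool and 237 (217 to 258) in the control pool. In the other C1q cells, kept cells with at least 3 C1q UMIs outside the gate, Folr2 stood at 45.5 UPM in control and 35.4 in Tgfbr2-KO, and none of the other gate genes passed 8.92 UPM.

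Because the gate sums its genes, each was compared again in cells chosen by at least 8 UMIs of the other 4. Cd209g was then 2.04 times as high in the Tgfbr2-KO pool (1.84 to 2.26, in 180 and 334 cells). Cd209f was 1.89 times as high (1.77 to 2.02, in 166 and 323 cells), and Cd163 1.80 times (1.58 to 2.05, in 169 and 311 cells). Folr2 was 1.3 times as high (1.20 to 1.40), though only 101 and 225 cells could be chosen without it. Lyve1 was 1.58-fold lower (1.39 to 1.79, in 166 and 329 cells). The order of the genes and each direction were those of the full gate. All these cells are also gated macrophages, and each lectin gene was still among the genes that chose cells for the other. The likeness was therefore in large part fixed in advance and supports nothing by itself.

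**Figure D1:**
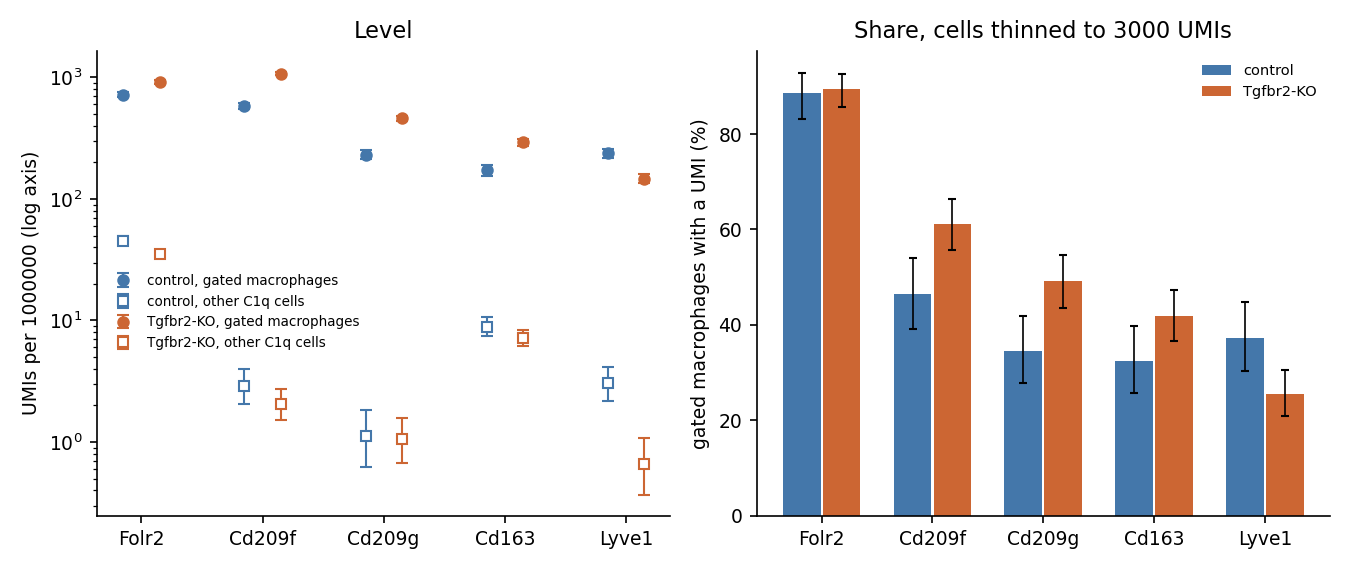
Left, level of the 5 gate genes (UMIs per 1000000, log axis) in gated macrophages (filled circles) and other C1q cells (open squares) of each pool, with 95% Poisson intervals. Right, share of gated macrophages with a UMI after thinning to 3000 UMIs, with 95% exact binomial intervals. Folr2 is held by 88.6% and 89.5% of thinned cells, and Lyve1 by 37.3% in control and 25.4% in Tgfbr2-KO.

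Within the gate the genes came in different combinations. All 5 were held by 16% of control (11.1 to 22.1) and 20% of Tgfbr2-KO gated macrophages (15.9 to 24.7). Only 1 of the 5 was held by 7.49% and 10.0%. Cells with under 3 UMIs of Cd163, Lyve1, Cd209f and Cd209g together, which entered the gate through Folr2, were 37 control cells (19.8%) and 55 Tgfbr2-KO cells (16.2%). Of these, 13 and 32 held no UMI of the 4 genes. The gate therefore joined cells with the whole set of genes and cells whose gate UMIs were nearly all Folr2.

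**Figure D2:**
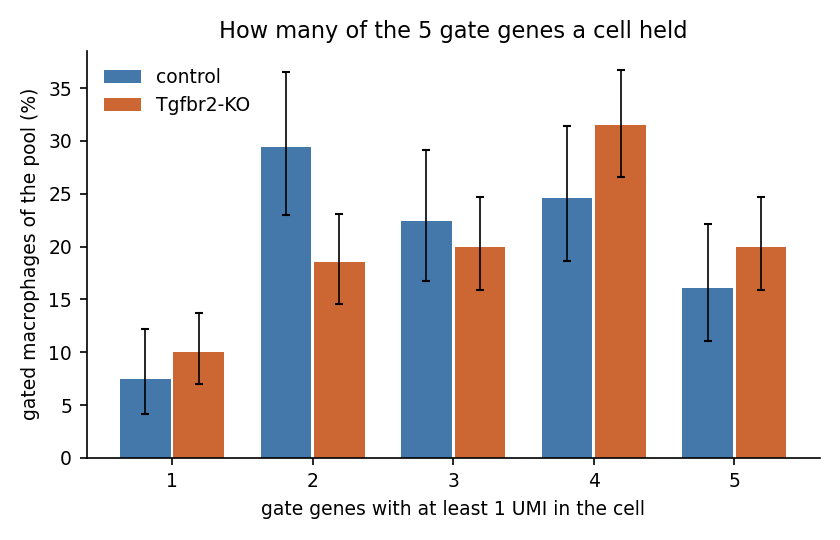
Share of gated macrophages of each pool (bars, with 95% exact binomial intervals) by how many of the 5 gate genes had at least 1 UMI in the cell. The control pool has most cells at 2 genes (29.4%) and the Tgfbr2-KO pool at 4 genes (31.5%).

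After thinning, 82.8% of the control gated macrophages with Cd209g also held Cd209f, against 27.3% of those without it. In the Tgfbr2-KO pool these shares were 92.7% and 30.6%. Across thinned cells the rank correlation of Cd209f and Cd209g was 0.60 in 185 control cells and 0.73 in 334 Tgfbr2-KO cells. Lyve1 and Folr2 came next in the control pool with 0.29, and stood at 0.26 in the Tgfbr2-KO pool. The other 8 pairs lay between -0.12 and 0.18. Lyve1 and Cd209f stood at -0.04 in control and 0.18 in Tgfbr2-KO cells. Cells of a pool share a library, counts per thinned cell were often a few UMIs, and the cells were chosen on the sum of these same genes. How far this shaped the correlations was not tested, so they are given as descriptions. Cd209f and Cd209g are close paralogs, and reads that the counting could place in either gene would add to their joint presence. This was not tested.

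At the edge of the gate, cells just outside it held a larger share of Folr2 and less Mrc1 than cells just inside. In control C1q cells with 6 to 7 gate UMIs, Folr2 made up 81.9% of the gate UMIs and Mrc1 stood at 1139 UPM. In those with 8 to 9 gate UMIs, Folr2 made up 65.6% and Mrc1 stood at 2022 UPM. In the Tgfbr2-KO pool Folr2 made up 83.3% and 69.2%, with Mrc1 at 1509 and 2156 UPM. The groups held 26 and 34 control cells and 48 and 47 Tgfbr2-KO cells.

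The gated macrophages carried the wider profile of CD206+ interstitial macrophages. Against other C1q cells, 21 of 23 counted genes of a CD206+ and perivascular macrophage list were at least 1.5-fold higher in the control pool and 22 of 23 in the Tgfbr2-KO pool. Genes entered the comparison if both groups together held 100 UMIs or more and 1 of them reached 50 UPM. A gene is called higher or lower where the ratio passed 1.5-fold. A gene under 50 UPM in other C1q cells was thus counted only through the gate, and its call was in large part fixed. In control this held for Fcna and Gas6, at 6.02 and 42.1 UPM there, but not for F13a1, at 74.3. With no minimum, the list summed per thinned cell to medians of 52 (control) and 70 (Tgfbr2-KO) UMIs in the gate. In other C1q cells of either pool the median was 10. Among all counted genes, 18.1% of 3171 were higher and 6.37% lower in control, and 16.6% of 3246 higher and 13.6% lower in Tgfbr2-KO. The list median was 1.94 and 2.44 on the log2 scale, beside 0.13 and -0.00 over all counted genes. Over all 2942 genes counted in both pools, 12.6% were called higher and 4.93% called lower in both. Trimmed-mean scaling moved the members by 0.12 and 0.07 (log2), and turned the split from 372 higher and 145 lower genes to 297 and 209. The gate was chosen on the same counts, so this comparison describes the cells and tests nothing.

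The mannose receptor Mrc1 stood at 2347 UPM in control and 2606 in Tgfbr2-KO gated macrophages, against 626 and 521 in other C1q cells. Pf4, a platelet-type chemokine that macrophages also make, stood at 3140 and 3406 UPM against 1005 and 628. Selenop, a secreted selenium carrier, stood at 3075 and 3370 UPM against 1008 and 728. F13a1, the coagulation factor XIII subunit, was among the clearest single markers, at 1267 and 1350 UPM against 74.3 and 83.5. It was held by 88.6% and 89.2% of thinned gated macrophages. Timd4, a phosphatidylserine receptor of long-lived resident macrophages, stood at 5.57 UPM (2.88 to 9.74) in control and 25.2 UPM (20.4 to 30.8) in Tgfbr2-KO gated macrophages, against 4.38 and 0.748 UPM in other C1q cells. It was held by 3.21% of control and 11.2% of Tgfbr2-KO gated macrophages.

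By the smaller of the ratios in the 2 pools, Cd55, which encodes complement decay-accelerating factor, led the genes outside the gate. It stood at 51.1 UPM in control and 52.8 in Tgfbr2-KO gated macrophages, which is 32.7-fold (20.4 to 55.0) and 40.0-fold (27.1 to 60.8) above other C1q cells. Fcna, the soluble lectin ficolin A, followed with 148 and 156 UPM, 24.5-fold and 41.2-fold higher. Ccl24, an eosinophil-attracting chemokine, stood at 195 and 217 UPM, 24.5-fold and 32.9-fold higher. Ednrb, the endothelin receptor B, stood at 165 and 158 UPM, against 0.743 UPM in control and 8.32 in Tgfbr2-KO other C1q cells. These 4 genes had nearly equal levels in both pools of gated macrophages.

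Enzymes and secreted factors filled the rest of the leading genes. Cbr2, a carbonyl reductase, stood 12-fold and 15.3-fold higher than in other C1q cells, and the gelatinase gene Mmp9 11.6-fold and 10.6-fold. Ltc4s, the leukotriene C4 synthase, stood 8.62-fold and 14.2-fold higher, and the phospholipase gene Pla2g2d 8.34-fold and 9.14-fold. The lectin gene Clec10a stood 8.64-fold and 8.10-fold higher. Gas6, which bridges dying cells to TAM receptors, stood 7.96-fold and 13.7-fold higher, and the growth factor gene Bmp2 6.89-fold and 7.19-fold. C4b, the complement component C4, stood 21.8-fold and 6.80-fold higher. Plekhg5 and Trim30c completed the 15 leading genes, with 10.2-fold and 14.8-fold, and 8.99-fold and 7.11-fold.

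Genes of haem and iron handling were mostly higher in the gate. Of the list, 9 of 14 counted genes in the control pool and 9 of 15 in the Tgfbr2-KO pool were called higher, with medians of 1.08 and 1.3 (log2). Over all counted genes the shares called higher were 18.1% and 16.6%. Hmox1, which breaks down haem, stood at 1260 and 1033 UPM against 274 and 164 in other C1q cells. Cp, encoding ceruloplasmin, stood at 134 and 167 UPM against 27.3 and 26.8. Spic, a transcription factor of iron-recycling macrophages, stood at 116 and 115 UPM against 33.1 and 23.6. Fth1, the ferritin heavy chain, was at 0.73 and 0.66 times the level of other C1q cells, and the iron exporter gene Slc40a1 was at 6.5 and 14.3 UPM and too low to be counted.

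Of the chemokine list, 6 of 17 counted genes were called higher and 3 lower in control, and 8 of 18 higher and 4 lower in Tgfbr2-KO. Over all counted genes, 18.1% were called higher and 6.37% lower in control, and 16.6% and 13.6% in Tgfbr2-KO. The lower ones were Ccl5, Cxcl16 and Cxcl10 in both pools and Cxcl9 in Tgfbr2-KO. Ccl2, which attracts monocytes, stood at 5680 and 5307 UPM, 2.49-fold and 2.97-fold above other C1q cells, and Ccl7 at 4168 and 3751 UPM, 3.50-fold and 4.13-fold above them. Ccl8 stood 10.1-fold and 5.35-fold higher. Of the complement list, 7 of 11 counted genes in control and 8 of 13 in Tgfbr2-KO were called higher, among them Cfp, properdin, and 1 and 2 were called lower. C1qa, C1qb and C1qc themselves stood at 0.96 to 1.26 times the level of other C1q cells. Of the transcription factors, Maf was 4.01-fold and 4.34-fold higher.

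MHC class II genes stood lower in the gate in the control pool, where 6 of 7 counted genes were called lower. In the Tgfbr2-KO pool 1 of 7 was called lower. Over all counted genes, 6.37% were called lower in control and 13.6% in Tgfbr2-KO, and 1 of 7 is near the latter share. H2-Ab1, a class II beta chain, stood at 0.64 times the level of other C1q cells in control and at 0.86 times in Tgfbr2-KO. The CD206- interstitial macrophage list had 10 of 10 counted genes called lower in control and 9 of 10 in Tgfbr2-KO. The other one there, the chemokine gene Cxcl12, was called higher at 61.0 UPM against 5.15 and was counted only through the gate. A gene under 50 UPM in the gate was counted only through the other C1q cells, and its lower call was in large part fixed. In control this held for H2-M2, Itgax and Cd72, among others, at 11.6, 29.3 and 34.8 UPM in the gate. The 5 list genes with at least 50 UPM in control gated macrophages were all called lower there. The list was not read against other C1q cells without a minimum. H2-M2, a non-classical class I gene, was 15-fold and 5.69-fold lower, and Cadm1, an adhesion molecule, 5.43-fold and 5.34-fold. Itgax, which encodes CD11c, was 4.34-fold and 4.85-fold lower, and Cd72 was 5.22-fold and 4.22-fold lower. Ear2, a ribonuclease of patrolling monocytes, was 6.51-fold and 9.52-fold lower. The chemokine gene Ccl5, Napsa, Nav2, Gngt2 and Runx3 completed the 10 lowest genes, each at least 4.01-fold lower in both pools.

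**Figure D3:**
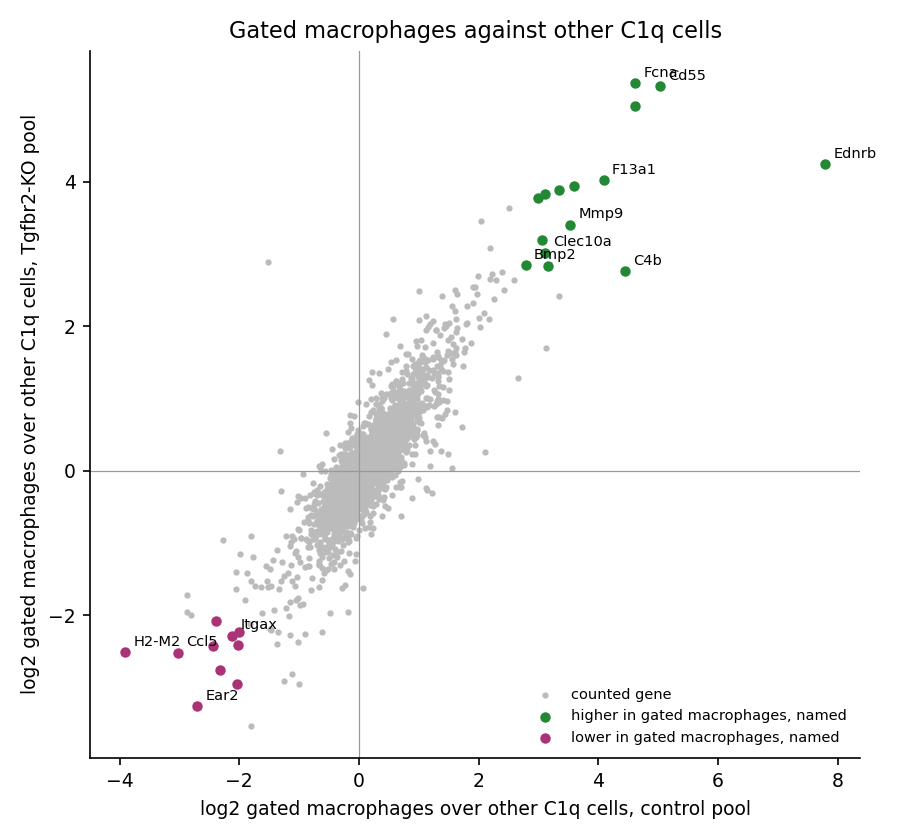
log2 ratio of gated macrophages over other C1q cells for each gene counted in both pools outside the gate genes, control pool on the x axis and Tgfbr2-KO pool on the y axis. The 15 highest (green) and 10 lowest (purple) named genes lie at the same ends in both pools, and Ednrb stands out at 7.79 in control and 4.25 in Tgfbr2-KO.

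The gated macrophages were also set beside Mrc1 cells outside the gate, which held C1q, at least 3 Mrc1 UMIs and at most 2 gate UMIs (780 control and 878 Tgfbr2-KO cells). Of all counted genes, 15.7% in control and 13.7% in Tgfbr2-KO were called higher in the gate, and 6.15% and 9.41% lower. F13a1 stood 18.2-fold and 15.4-fold above these cells, and Cd55 122-fold and 71.0-fold. Gas6 stood 9.74-fold and 13.9-fold above them. H2-M2 was 14.9-fold and 5.55-fold lower. These cells were chosen for few gate UMIs, and their Mrc1 was lower too, at 849 UPM in control and 812 in Tgfbr2-KO, so the groups were not matched on Mrc1.

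Markers of other cell types were read in the gate as whole lists. Of 11 lymphatic endothelium genes, 5 had UMIs in control and 7 in Tgfbr2-KO gated macrophages, summing to 194 and 61.8 UPM. Pdpn, a mucin-type glycoprotein, made up 183 and 43.5 UPM of this, Mmrn1 and Reln were at 0 in both pools, Ccl21a and Flt4 were at 0 in control only, and Prox1 in Tgfbr2-KO only. Of 14 T and NK cell genes, 2 and 5 had UMIs, summing to 43.2 and 74.5 UPM, with Cd3d, Cd3e, Cd3g and Trac at 0 in both pools. Of 10 B and plasma cell genes, 5 had UMIs in each pool, summing to 156 and 264 UPM. Ighm, the immunoglobulin mu heavy chain, made up 146 and 247 UPM of this and was called higher in the Tgfbr2-KO pool, and Cd79a and Pax5 were at 0. The part of these cells in the results was not tested.

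Of 13 alveolar macrophage genes, 9 had UMIs in each pool, summing to 115 and 188 UPM. Pparg, a nuclear receptor of alveolar macrophages, led them with 56.2 and 93.9 UPM and was called higher in the Tgfbr2-KO pool, and Krt79 and Car4 were at 0. Of 12 cavity macrophage genes, 8 and 10 had UMIs, summing to 1273 and 1577 UPM, led by the chemokine gene Cxcl13 with 1101 and 1343 UPM, and Prg4 and Alox15 were at 0. Of 12 neutrophil genes, 7 and 8 had UMIs, summing to 580 and 787 UPM, of which Mmp9 made up 502 and 716, and Cxcr2 and Ly6g were at 0. The classical monocyte list summed to 2667 and 2036 UPM, led by F13a1, with 10 and 12 of 13 genes detected. The dendritic cell list summed to 328 and 609 UPM, led by Clec10a, with 11 and 12 of 12 genes detected. Their part in the results was likewise not tested.

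RNA free in the droplets could make up at most 1.53% of the UMIs of control and 5.45% of those of Tgfbr2-KO gated macrophages. In barcodes of 10 to 100 UMIs, Cd209f stood at 262 UPM and Folr2 at 244 UPM, both above their levels in the other kept cells. After subtraction at the upper limit, each gene named for a highest or lowest ratio kept its direction. Genes named only for their role were not rerun.

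Between the pools, gated macrophages of the Tgfbr2-KO pool had higher interferon-response genes and lower TGF-beta target genes than those of the control pool. Of 3210 counted genes, 190 were called higher (5.92%) and 251 called lower (7.82%) in the Tgfbr2-KO pool. In other C1q cells 9.56% of 3074 counted genes were higher and 7.09% lower. The same pools of mice stand behind both comparisons, and whether the contrast differed between the gate and the other cells was not tested.

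**Figure D4:**
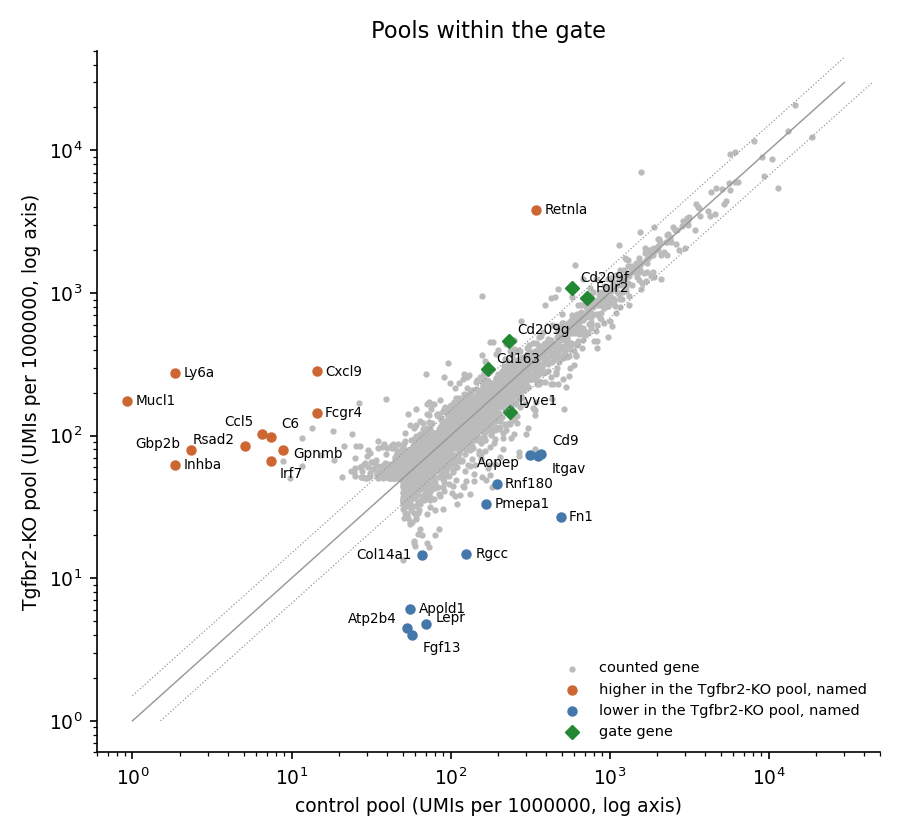
Level of each counted gene in gated macrophages of the control pool (x axis) and Tgfbr2-KO pool (y axis), in UMIs per 1000000 on log axes. Solid line, equal levels, and dotted lines, a ratio of 1.5 either way. Among the gate genes (green diamonds), Cd209f, Cd209g and Cd163 lie above the upper dotted line and Lyve1 below the lower one.

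Genes of the interferon response stood higher as a group. All 16 counted genes of the list were called higher in Tgfbr2-KO gated macrophages, with a median of 2.03 (log2) beside -0.03 over all counted genes. The share of all counted genes called higher was 5.92%. A gene that is low in control is counted only when it is high in the other pool. All 30 genes of the list in the matrix were therefore also read without a minimum, and 29 stood higher in the Tgfbr2-KO pool. The share of all genes on either side without a minimum was not counted, here or for the lists below. Of the 7 with at least 50 UPM in control, all 7 were called higher. In other C1q cells 21 of 21 counted genes were higher, with a median of 2.65. Per thinned cell, the list summed to a median of 4 UMIs in control and 9 UMIs in Tgfbr2-KO gated macrophages, and the lowest 10% of the latter held at most 3.

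Ly6a, a surface antigen induced by interferon, stood at 1.86 UPM (4 UMIs) in control and 274 UPM in Tgfbr2-KO gated macrophages, a ratio of 148 (57.5 to 543). It was held by 0.54% and 17.1% of thinned cells, with 82.3% of its Tgfbr2-KO UMIs in the 10% of gated macrophages with the most. The GTPase gene Gbp2b stood at 2.32 and 78.8 UPM, a ratio of 33.9 (14.4 to 105). Ifitm3, which restricts virus entry, stood at 610 and 1584 UPM. Irf7, a transcription factor of the response, stood at 7.43 and 66.0 UPM. Rsad2, which encodes viperin, stood at 5.11 and 84.6 UPM, with 90.6% of its Tgfbr2-KO UMIs in the 10% of cells with the most Rsad2. Irf8 had the lowest ratio of the 16, with 92.4 and 160 UPM.

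Levels of several of these genes came from few cells. Cxcl9, a ligand of CXCR3, stood at 14.4 and 282 UPM, a ratio of 19.6 (13.7 to 29.0), and 96.9% of its Tgfbr2-KO UMIs lay in the 10% of gated macrophages with the most. Outside the gate it stood at 49.1 and 1687 UPM. In barcodes of 10 to 100 UMIs Cxcl9 stood at 992 UPM. Ccl5 stood at 6.5 and 102 UPM, with 94.8% of its Tgfbr2-KO UMIs in the 10% of cells with the most Ccl5. Mucl1, Inhba and Gpnmb each had all their Tgfbr2-KO UMIs in the 10% of cells with the most of that gene. Each was held by fewer cells than that, so this was fixed in advance. The top cells were ranked for each gene apart, and whether the genes shared them was not tested. Mucl1 stood at 0.929 UPM (2 UMIs) and 176 UPM, a ratio of 189 (52.1 to 1563), and was held by 5.59% of Tgfbr2-KO gated macrophages. Inhba, which encodes the activin A subunit, stood at 1.86 and 62.0 UPM and was held by 5.29%. Gpnmb, a gene of lipid-laden macrophages, stood at 8.83 and 79.3 UPM but was held by 4.28% of control and 2.35% of Tgfbr2-KO cells, so its ratio of 8.98 rests on 8 of 340 cells.

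Of the other genes, C6, Fcgr4 and Retnla were held by more of the Tgfbr2-KO cells. C6, a complement component of the membrane attack complex, stood at 7.43 and 98.4 UPM, a ratio of 13.2 (8.04 to 23.4), and was held by 1.62% and 19.5% of thinned cells. Outside the gate C6 stood at 0.297 and 2.46 UPM. Fcgr4, an activating Fc receptor, stood at 14.4 and 145 UPM, a ratio of 10.1 (7.0 to 14.9), and was held by 2.70% and 22.2%. Retnla, a secreted protein of alternatively activated macrophages, stood at 346 and 3843 UPM, a ratio of 11.1 (10.3 to 12). It was held by 8.11% and 26.6% of thinned cells. Its UMIs were concentrated, with 98.3% of those in control and 81.6% of those in Tgfbr2-KO in the top 10% of cells. Ccl8 stood at 1569 and 7065 UPM, and Clec10a at 177 and 451 UPM. Of the complement list, 4 of 11 counted genes were higher, C6, C4b, Cfp and C3, and 1 lower, Cd93. Over all counted genes the shares were 5.92% higher and 7.82% lower. Of the 10 with at least 50 UPM in control, 3 were higher and 1 lower. Without a minimum, 13 of 19 stood above control and 6 below.

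The TGF-beta targets were mostly lower. Of 15 counted genes, 9 were called lower and 1 was called higher, and the median was -1.07 (log2). Over all counted genes, 7.82% were called lower and 5.92% higher. Of all 27 list genes with a UMI, 20 stood lower. In other C1q cells 7 of 17 were called lower and 1 higher, and the median was -0.57. Rgcc, a cell cycle regulator induced by TGF-beta, stood at 124 and 14.8 UPM, 8.38-fold lower. Pmepa1, a feedback inhibitor that binds receptor Smads, stood at 167 and 33.1 UPM and was held by 24.3% and 7.19% of thinned cells. Skil, another feedback inhibitor, stood at 535 and 219 UPM, and Ldlrad4 at 252 and 103 UPM. Id3 was the 1 higher gene, at 172 and 274 UPM, and Smad7 was too low to be counted, at 15.3 and 5.57 UPM. The type I receptor gene Tgfbr1 stood at 141 and 48.0 UPM, while the ligand gene Tgfb1 stood at 270 and 220 UPM.

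Fn1, which encodes fibronectin, was the lowest named gene, at 492 UPM in control and 27.0 in Tgfbr2-KO gated macrophages. That is 18.2-fold lower (14.8 to 22.5), and in control 88.3% of its UMIs lay in the 10% of cells with the most. Lepr, Fgf13, Atp2b4 and Apold1 stood between 53.4 and 69.7 UPM in control and at most at 6.10 UPM in Tgfbr2-KO, and at least 77.4% of their control UMIs lay in the top 10% of cells. Itgav, the integrin alpha V subunit that activates latent TGF-beta and binds dying cells, stood at 370 and 74.2 UPM and was spread more widely, over 46.5% and 12% of thinned cells. Aopep stood at 316 and 73.2 UPM, over 43.2% and 16.5%. Cd9, a tetraspanin, stood at 355 and 72.1 UPM, Rnf180 at 195 and 45.6 UPM and Col14a1 at 66.4 and 14.6 UPM. All 12 lowest genes were also lower in the Tgfbr2-KO pool among other C1q cells, from 7.46-fold for Fn1 to 1.86-fold for Apold1.

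Genes for the uptake of dying cells stood lower. Of 14 counted efferocytosis genes, 8 were called lower and none higher, with a median of -0.67 (log2). Over all counted genes, 7.82% were called lower and 5.92% higher. In other C1q cells 8 of 13 were lower, beside 7.09% of all counted genes, with a median of -0.72. Axl, a TAM receptor, stood at 123 and 56.7 UPM, and Mertk, another, at 157 and 93.9 UPM. Stab1, a scavenger receptor for phosphatidylserine, stood at 333 and 152 UPM. Gas6, the ligand of the TAM receptors, stood at 335 and 362 UPM. Itgav and Itgb5, at 121 and 43.8 UPM, are in this list and in the TGF-beta pathway list.

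MHC class II genes stood higher in the Tgfbr2-KO pool within the gate, with 3 of 7 counted genes called higher and a median of 0.51 (log2). Over all counted genes the share called higher was 5.92%. Of the 6 with at least 50 UPM in control, 2 were called higher. Without a minimum, all 11 genes of the list stood above control. H2-Ab1 stood at 5755 and 9390 UPM, H2-Eb1 at 6180 and 9821, and Ciita, the class II transactivator, at 38.1 and 88.0 UPM. In other C1q cells none of 7 passed 1.5-fold, with a median of 0.20. Per thinned cell, the class II list summed to a median of 107 UMIs in control and 166 in Tgfbr2-KO gated macrophages, against 200 and 199 in other C1q cells. The gap between gated and other cells was thus smaller in the Tgfbr2-KO pool, and that difference was not tested.

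Of 23 counted genes of the CD206+ list, 4 were called higher and 2 lower in the Tgfbr2-KO pool, beside 5.92% and 7.82% of all counted genes, and the median was 0.16 (log2). Of all 28 genes of the list, 22 stood above control. So did 11 of 11 blood endothelium genes and 17 of 20 cell cycle genes, and 9 of 19 genes of the interstitial macrophage core. The 22 of 28 is therefore not read as a result about this list. Per thinned cell the list summed to a median of 52 UMIs in control and 70 in Tgfbr2-KO gated macrophages, and to 10 in other C1q cells of either pool. The higher ones were Cd209d, at 18.1 and 108 UPM, Ccl8, Clec10a and Wwp1, and the lower ones were Stab1 and Ltc4s, at 190 and 110 UPM. F13a1, Mrc1, Pf4, Selenop and Fcna each stood 1.06 to 1.11 times as high in the Tgfbr2-KO pool. Of the haem and iron list, 1 of 15 counted genes passed 1.5-fold, Lrp1, and the median was -0.01. Of 7 counted genes of the CD206- list, 5 were called higher in the Tgfbr2-KO pool, Cxcl12, Cd72, Ccr2, Cd52 and Mmp12, and Cd9 and Col14a1 were lower. Genes low in control were counted only when high in the other pool. Of the 5 with at least 50 UPM in control, 3 were called higher and 2 lower. Without a minimum, 7 of the 12 genes of this list stood above control and 5 below.

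Inflammatory mediators stood lower, with 5 of 12 counted genes called lower, none higher and a median of -0.50 (log2). Over all counted genes, 7.82% were called lower and 5.92% higher. Il1a stood at 517 and 154 UPM, Tnf at 512 and 249, Nlrp3, the inflammasome sensor, at 830 and 462, and Il6 at 178 and 103. In other C1q cells 7 of 13 were called lower and 2 higher, and the median was -0.62. Trem2, a lipid-sensing receptor, stood at 341 and 80.3 UPM, and Cx3cr1, the fractalkine receptor, at 268 and 76.9 UPM. Apoe stood at 18809 and 12412 UPM. Of 18 genes that respond to cell dissociation, 3 were called higher and 1 lower in the Tgfbr2-KO pool, with a median of 0.22, and Hspa1a, a heat shock gene, stood at 278 and 640 UPM. In other C1q cells the list median was -0.35. Per thinned cell the list summed to a median of 56 UMIs in control and 66 in Tgfbr2-KO gated macrophages. The part of dissociation in the values above was not tested.

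**Figure D5:**
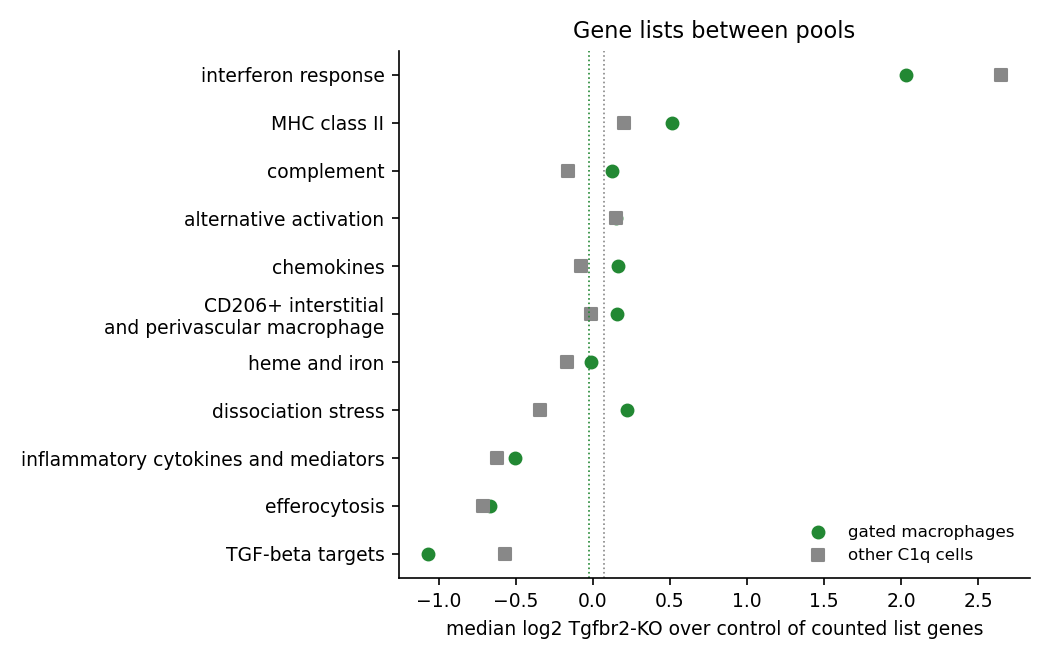
Median log2 ratio of Tgfbr2-KO over control for the counted genes of 11 lists, in gated macrophages (green circles) and other C1q cells (grey squares), with dotted lines at the median of all counted genes. Interferon response lies farthest to the right in both, at 2.03 and 2.65, and TGF-beta targets lie farthest to the left in the gate, at -1.07.

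The pool contrast was read again in 2 kinds of gated cells, a split chosen after seeing the data. In cells with at least 3 UMIs of Cd163, Lyve1, Cd209f and Cd209g together (150 control, 285 Tgfbr2-KO), 17 of 17 counted interferon-response genes were called higher, with a median of 2.04, and 9 of 15 TGF-beta targets were lower, with a median of -0.86. Of all counted genes there, 5.95% were higher and 8.22% lower. In the cells with under 3 UMIs of these genes (37 and 55), 8 of 9 interferon-response genes were higher, with a median of 1.68, and 5 of 10 TGF-beta targets were lower, with a median of -0.62. Of all counted genes there, 9.5% were higher and 14.3% lower. Both directions were therefore present in either kind of cell. Mucl1 was the exception among the 24 genes named for the highest and lowest pool ratios. Its log2 ratio was 7.50 in the former cells and -0.56 in the latter.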

How the data were processed

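The members and gene lists were chosen with earlier results of these data known. The authors deposited raw UMI counts per gene and barcode for all barcodes, without normalization; Cell Ranger 8.0 (8.0.0 per the file headers), Seurat 5.1.0 and GRCm38 are named in the submitters' processing notes. The step done with Seurat and the annotation version are not given in the sources used here. The deposited hashtag table gives, per the file headers, the fraction of posterior probability of each assignment and log10 hashtag counts plus 1, which equalled those in the matrix within 8.9e-16. The other deposited columns are barcodes, gene names and assignments.

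Of 4671 cells assigned to 1 hashtag, 101 were removed for fewer than 1000 UMIs, fewer than 500 genes or more than 10% mitochondrial UMIs. The 96 hashtag multiplets entered no comparison, no doublet caller was run, and doublets within a hashtag cannot be seen. Gated macrophages held 2152759 UMIs in control and 3771335 in Tgfbr2-KO cells. Counts were summed per pool and group of cells and divided by all gene UMIs. Intervals are exact 95% Poisson, conditional binomial (ratios) or Clopper-Pearson (shares) with Python 3.11.15, numpy 2.4.6, scipy 1.17.1 and pandas 2.3.3. The upper limit of free RNA came from barcodes of 10 to 100 UMIs and the gene that allowed the least. In ratios, 3 counts stood in for 0. Named genes are the 12 highest and 12 lowest pool ratios in the gate, and the 15 highest and 10 lowest against other C1q cells, without mitochondrial, ribosomal, sex-linked, predicted, gate and C1q genes; of each list the genes with extreme ratios were named, and other genes were named for their role after their values were seen. Paralogs (Cd209, Gbp, Lyz and Ly6 families, C4b) can share reads. The calculation was tested on simulated counts.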

Additional observations from a re-analysis of the deposited data

Results flagged for a closer look

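Cd209a, a lectin gene of the same family as Cd209f, differed in direction between the gate and the other cells. Its log2 ratio of Tgfbr2-KO over control was 1.86 in gated macrophages, with 18.6 and 67.6 UPM, and -2.53 in other C1q cells, with 53.0 and 9.15 UPM. Clec4e, which encodes the lectin Mincle, had a log2 ratio of -1.02 in the gate, with 74.8 and 36.9 UPM, and 0.74 outside it, with 85.3 and 142 UPM. These were the 2 of 2697 genes counted on both sides that were at least 1.5-fold higher on one side and at least 1.5-fold lower on the other, and the difference was not tested.

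Of the 96 cells called multiplet by hashtag, which entered no comparison, 15 met the UMI gate. That is 15.6% (9.02 to 24.5, exact binomial interval), and the multiplets had a median of 17054 UMIs.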

How the results depend on the processing

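No paired analysis was possible because each genotype was 1 pool, and no replicate could be left out. The genes rerun were the 24 and 25 named for the highest and lowest ratios, so a kept direction was likely beforehand. Over 15 alternatives, 935 of their 936 log2 ratios kept their direction. Mucl1 alone reversed, to -0.56 in gated macrophages with under 3 UMIs of Cd163, Lyve1, Cd209f and Cd209g. With gate genes and list medians included, 207 values moved beyond the main interval or a set limit, and 905 did not. Genes named only for their role were not rerun. That split was chosen after seeing the data. The control share of gated macrophages was 6.33% with a gate of 12 UMIs and 9.86% in cells of 5000 to 15000 UMIs. The Tgfbr2-KO share was 14.5% with a gate of 6 UMIs, 9.91% with a gate of 12 and 15.2% in cells of 5000 to 15000 UMIs. Counts of genes past 1.5-fold followed the minimum. Without one, 2347 genes were higher and 2909 lower in the Tgfbr2-KO pool, and 3130 higher and 798 lower in the gate in both pools. With a minimum of 200 UMIs and 100 UPM, 109 were higher and 151 lower in the Tgfbr2-KO pool. With 2152759 and 3771335 UMIs in the gate, genes under about 50 UPM could not be compared, and differences between mice were not measured.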

Other observations

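Of the called cells that the hashtags left without a genotype, 2 of 66 unassigned and 2 of 54 blank cells met the UMI gate. They entered no comparison.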
